A study of Xenopus tropicalis with 7 samples.

Results

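The genes described here encode components of the neuromuscular junction, the synapse between a motor neuron and a muscle fibre. The set was fixed as 10 gene symbols, *chrna1*, *chrnb1*, *chrnd*, *chrng*, *chrne*, *musk*, *rapsn*, *ache*, *colq* and *dok7*, and 8 of them were matched to a symbol among the 19884 genes of the count table. *chrnb1* and *colq*, which encode the β1 subunit of the receptor and the collagen tail of acetylcholinesterase, were not analysed here. A duplicated gene, *chrna1.2*, is given beside *chrna1* but is not counted as a member.

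Poly(A) RNA of whole *X. tropicalis* embryos (Nigerian strain, Cam4, wild type, grown at 25 °C) was sequenced in 7 libraries, with as much total RNA in each as 2 embryos hold. Xbra/Xbra3 KD embryos (3 libraries, stage 32, an early tadpole stage) were injected when they were a single cell with 20 ng of antisense morpholinos that block splicing and translation of the Brachyury paralogues *Xbra* and *Xbra3*. Control embryos (3 libraries, stage 32) received 20 ng of a control morpholino in the same way. Uninjected embryos at stage 20, an early tail bud stage, gave 1 library without a replicate. All KD and control embryos were injected, so the stage 20 embryos differ from them by injection as well as by stage. The deposited counts, called reads here, sum to 73740300 to 120160026 per library over all genes of the table. Levels are given as CPM (read counts scaled to the depth of the library, with TMM factors). Read counts were not corrected for transcript length, so the level of a gene is compared between libraries. Shares, sums and ratios over several genes use uncorrected reads and are not proportions of transcripts.

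At the vertebrate neuromuscular junction, acetylcholine released by the motor neuron opens the muscle nicotinic receptor, a ring of α1, β1, δ and either γ or ε subunits. Nerve-derived agrin acts through LRP4 on the muscle kinase MuSK, which needs the adaptor Dok7 for its activity, and rapsyn gathers the receptors under the nerve ending. Acetylcholinesterase ends the signal by splitting acetylcholine. In mammals the embryonic γ subunit is replaced by the ε subunit as the synapse matures, and muscle cells can make receptors before a nerve arrives.

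The morpholino targets were read first. *Xbra3*, listed as *t2*, stood at 0.503 to 0.760 CPM in the KD libraries and at 14.3 to 27.1 CPM in the control libraries, and *Xbra*, listed as *t*, at 6.13 to 8.41 CPM in the KD libraries, against 9.75 to 17.4 CPM in the controls. Transcripts of skeletal muscle were present in every library. The summed level of a list of sarcomere and fibre genes was 11630 to 14090 CPM in KD embryos, against 26380 to 26850 CPM in control embryos and 18810 CPM at stage 20. Of 29 such genes tested 18 were called lower in the KD by the test described next and none higher, also in DESeq2 or at an unadjusted p below 0.05, with *mylpf*, *cacna1s*, *tnnt3* and *tnnc2* of the smallest p. That test called 6.98% of all genes lower. In the same edgeR test 1 of 7 erythrocyte genes (*hba1*) and 2 of 5 notochord genes (*cav1* and *cav2*) were called lower. The median log2 fold change was -0.01 over the erythrocyte genes and -0.04 over the notochord genes. None of 10 heart genes was called by edgeR, where 3 had an unadjusted p below 0.05, DESeq2 called 1, and a fit with the replicate number as a blocking term called 1 lower and 6 higher. That blocked fit called 38.2% of all genes tested, and DESeq2 called 3389 genes. The share of all genes at an unadjusted p below 0.05 is not given here. Of the 10 heart genes 9 were higher in the KD, with a median log2 fold change of 0.41, where 8648 of all 16944 genes tested were higher. Whole embryos were sequenced, so fewer muscle cells and less RNA per muscle cell cannot be told apart in any value below.

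All 8 genes had a lower level after Xbra/Xbra3 KD than in the controls, where 49% of the 16944 genes tested had a negative fold change. For 7 of them the fall passed a false discovery rate (FDR) of 10% in the quasi-likelihood test of edgeR, adjusted over all genes tested. By this rule 6.98% of all genes were called lower and 14.4% in either direction. The exception was *chrne*, the gene of the ε subunit, with an FDR of 0.129. The median log2 fold change of the 8 genes was -1.04, against 0.01 over all genes tested and -1.06 over the 29 sarcomere and fibre genes tested. For 7 of the 8 genes the 3 KD libraries lay wholly below the 3 control libraries, which held for 14.6% of all genes. When each KD library was set against the control library of the same number, all 24 differences were downward, and 28.4% of all genes were lower in every pair. For a single gene, the exact permutation test of 3 KD against 3 control libraries has 0.1 as its smallest p, so the calls rest on the model over all genes.

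**Figure D1:**
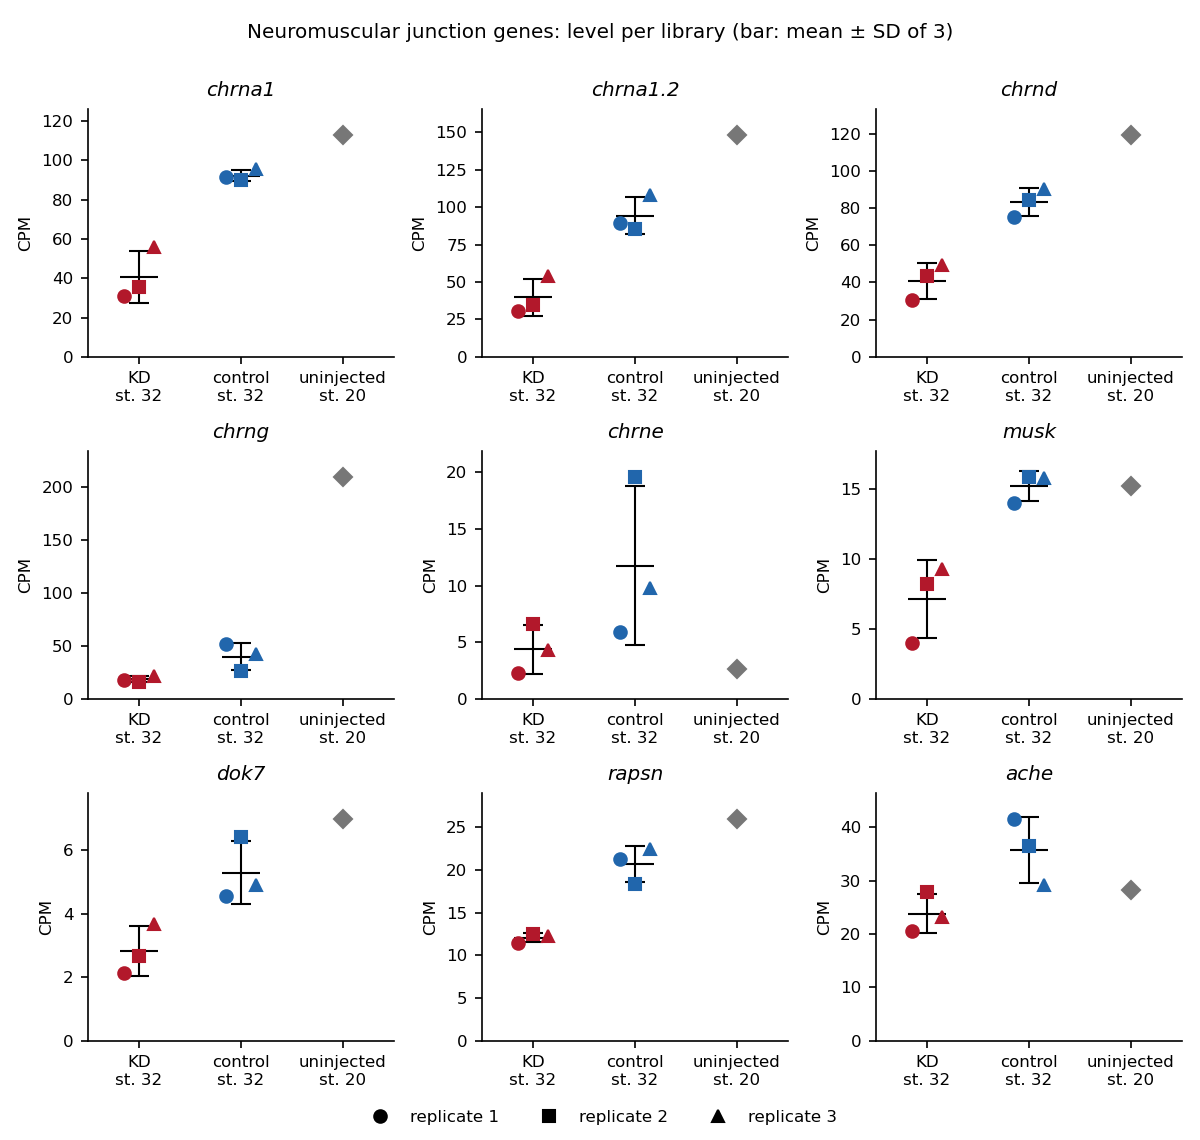
Level of each gene in CPM (vertical axis, linear from 0) in the 3 Xbra/Xbra3 KD libraries, the 3 control libraries and the stage 20 library; symbols mark the replicate number and bars the mean ± SD of 3 libraries. The KD libraries lie below the control libraries for every gene except *chrne*, and the stage 20 library is far above the others for *chrng*, at 209 CPM.

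*chrna1* (ENSXETG00000025420) encodes the α1 subunit, which carries most of the acetylcholine binding site. It stood at 31.1, 35.5 and 55.9 CPM in KD replicates 1, 2 and 3, against 91.3, 89.8 and 95.4 CPM in control replicates 1, 2 and 3. The control libraries were close together, whereas KD replicate 3 was well above the other KD libraries. The means were 40.8 ± 13.2 CPM in KD libraries against 92.2 ± 2.85 CPM in control ones (SD, n = 3 libraries each), 2.23-fold lower in the KD (log2 fold change -1.16, standard error 0.21, edgeR FDR 0.0200).

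The neighbouring copy *chrna1.2* (ENSXETG00000025418) followed it closely. It was at 30.5, 34.5 and 53.9 CPM in KD replicates 1 to 3 and at 89.4, 85.3 and 108 CPM in control replicates 1 to 3, with the same KD library highest (2.34-fold lower, log2 fold change -1.23, standard error 0.22, edgeR FDR 0.0186). In a RefSeq annotation of a later assembly no gene lies between both copies. Read pairs matching transcripts of more than 1 gene had been discarded, so reads from stretches the copies share are missing from both and their separate levels are uncertain. The ratio of *chrna1.2* to *chrna1* reads was 0.966 to 0.982 in the KD libraries, 0.950 to 1.13 in the control libraries and 1.31 at stage 20.

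*chrnd* (ENSXETG00000027884), the gene of the δ subunit, had 30.3, 43.2 and 49.2 CPM in KD replicates 1 to 3 and 75.1, 84.3 and 90.2 CPM in control replicates 1 to 3. The gap between the groups exceeded the spread within either. It was 2.01-fold lower in the KD (95% interval of the log2 fold change -1.44 to -0.57, standard error 0.19, edgeR FDR 0.0202). Leaving out any 1 of the 6 libraries kept *chrna1*, *chrna1.2* and *chrnd* below an FDR of 10%, with highest values of 0.0869, 0.0858 and 0.0924.

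*chrng* (ENSXETG00000013994), which lies next to *chrnd* in the RefSeq annotation, encodes the embryonic γ subunit. It was at 17.9, 16.1 and 21.5 CPM in KD replicates 1 to 3 and at 51.5, 26.0 and 41.9 CPM in control replicates 1 to 3. Replicate 2 was the lowest library of its group in both. The level was 2.12-fold lower in the KD (log2 fold change -1.09, standard error 0.25, edgeR FDR 0.0388), and the call was lost when KD replicate 1 (FDR 0.103), KD replicate 2 (FDR 0.104) or control replicate 3 (FDR 0.132) was left out.

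*chrne* (ENSXETG00000014957), for the adult ε subunit, had the largest standard error of the 8 genes. It stood at 2.25, 6.57 and 4.34 CPM in KD replicates 1 to 3, against 5.94, 19.5 and 9.74 CPM in control replicates 1 to 3, so that KD replicate 2 was above control replicate 1. Replicate 2 was the highest library of both groups, the reverse of *chrng*. The log2 fold change was -1.41 (standard error 0.50, 95% interval -2.58 to -0.25, edgeR FDR 0.129), and -0.84 without control replicate 2. Within same-numbered pairs the spread was small, with log2 ratios of -1.40, -1.57 and -1.17. In an edgeR fit blocked on replicate number *chrne* passed the threshold (log2 fold change -1.37, FDR 0.000404), as did all 8 genes, where 19% of all genes were called lower and 38.2% in either direction. It also passed in DESeq2 (adjusted p = 0.0212) and without control replicate 1 (FDR 0.0871), but not without any other single library (FDR up to 0.268).

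The share of *chrne* among the reads of *chrng* and *chrne* sets the alternative subunits side by side within a library. It was not corrected for transcript length, so it is compared between libraries and is not a proportion of transcripts. It was 11.2%, 29.0% and 16.8% in KD replicates 1 to 3 and 10.3%, 42.9% and 18.9% in control replicates 1 to 3. The order of the replicate numbers was the same in both groups. In pairs 1 and 3 KD and control differed less than the replicate numbers within either group did. In pair 2 they differed more than replicates 1 and 3 of either group. KD minus control was 0.82 percentage points in pair 1, -13.9 points in pair 2 and -2.08 points in pair 3. The exact 95% intervals (Clopper-Pearson, counting error only) were 27.0% to 31.2% for KD replicate 2 and 41.6% to 44.3% for control replicate 2, which do not overlap, whereas those of the libraries in pairs 1 and 3 did. At stage 20 the share was 1.25% (interval 1.11% to 1.40%).

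**Figure D2:**
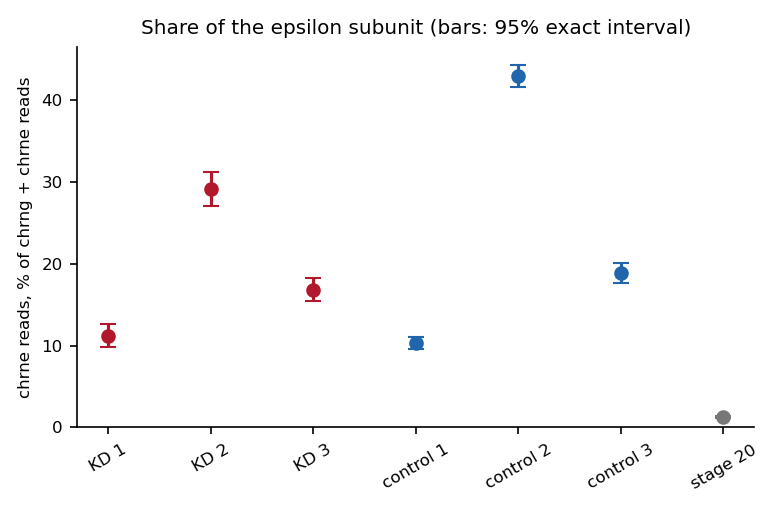
Reads of *chrne* as a percentage of the reads of *chrng* and *chrne* (vertical axis) in each library, with exact 95% intervals for counting error. Replicate 2 is highest in both groups, at 29.0% in the KD and 42.9% in the control, and stage 20 is lowest at 1.25%.

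*musk* (ENSXETG00000002604), the receptor tyrosine kinase that organises the postsynaptic membrane, had 3.99, 8.18 and 9.30 CPM in KD replicates 1 to 3 and 14.0, 15.8 and 15.8 CPM in control replicates 1 to 3. KD replicate 1 was below the other KD libraries by more than the control libraries differed. The level was 2.10-fold lower in the KD (log2 fold change -1.07, standard error 0.29, edgeR FDR 0.0674). The call was lost on leaving out KD replicate 2 (FDR 0.107) or any of control replicates 1, 2 and 3 (FDR 0.115, 0.102 and 0.185).

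*dok7* (ENSXETG00000005498), the adaptor of MuSK, had the fewest reads of the 8 in each stage 32 library, 218 to 416 in the KD. It stood at 2.13, 2.67 and 3.69 CPM in KD replicates 1 to 3 and at 4.56, 6.42 and 4.90 CPM in control replicates 1 to 3, without overlap. It was 1.84-fold lower in the KD (log2 fold change -0.88, standard error 0.26, edgeR FDR 0.0833). Leaving out single libraries took this call away in 5 of 6 cases, all but KD replicate 3, with an FDR of up to 0.195.

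*rapsn* (ENSXETG00000009048), whose product rapsyn anchors the receptors, had the smallest standard error of the set. It was at 11.5, 12.5 and 12.2 CPM in KD replicates 1 to 3 and at 21.2, 18.4 and 22.5 CPM in control replicates 1 to 3, with every KD library far below every control library. The level was 1.69-fold lower in the KD (log2 fold change -0.76, standard error 0.13, edgeR FDR 0.0173), and it stayed below an FDR of 10% whichever library was left out, with values of 0.0196 to 0.0857.

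*ache* (ENSXETG00000017226), for acetylcholinesterase, fell least. It stood at 20.5, 27.8 and 23.2 CPM in KD replicates 1 to 3 and at 41.4, 36.5 and 29.1 CPM in control replicates 1 to 3, and only a narrow gap parted KD replicate 2 from control replicate 3. It was 1.48-fold lower in the KD (log2 fold change -0.57, standard error 0.18, edgeR FDR 0.0927). Leaving out single libraries took the call away in 5 of 6 cases, all but KD replicate 2, with an FDR of up to 0.227. *ache* is known from neurons as well as from muscle. Of 10 genes tested on a neural list 9 were higher in the KD, 3 of them (*sox2*, *sox3* and *tubb2b*) with an edgeR FDR below 10%. Of the 16944 genes tested 8648 were higher in the KD, and edgeR called 7.44% higher. In the blocked fit 6 of the neural list passed, all higher, and in DESeq2 4, all higher. Of the 16944 genes tested the blocked fit called 3255 higher, and DESeq2 called 1649 genes higher. None of the neural list passed without KD replicate 2 or control replicate 3, and 1 passed without KD replicate 1 or 3, control replicate 2 or replicate 2 of both groups. Over all genes, the number called higher dropped from 1261 to 614 without KD replicate 2 and to 433 without control replicate 3. In the other fits named it was 661 to 918. The summed level of the neural list was 1456 to 1618 CPM in KD libraries against 1019 to 1169 CPM in control ones, with no gene at 0 in any library. The part of neural transcripts in the value of *ache* was not tested.

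**Figure D3:**
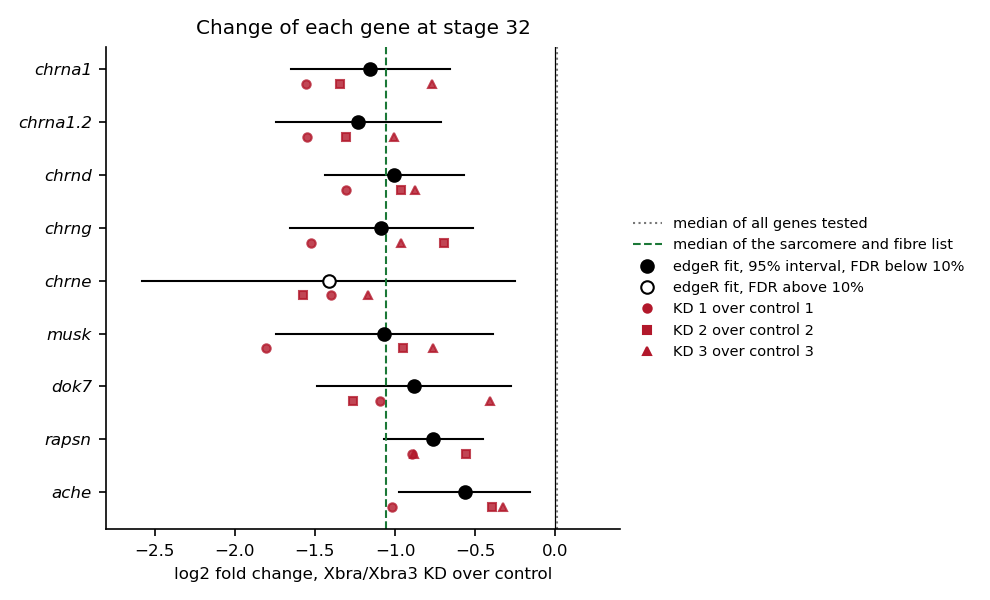
Log2 fold change of Xbra/Xbra3 KD over control for each gene (horizontal axis), with the 95% interval of the edgeR fit in black and the 3 same-numbered pairs in red. All intervals lie below 0, and *chrne* has the widest. The intervals are not adjusted for the number of genes tested, and *chrne* had an edgeR FDR of 0.129. The estimates run from -1.41 for *chrne* to -0.57 for *ache*, on either side of the sarcomere and fibre median of -1.06.

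The KD libraries differed from one another in a shared way. KD replicate 1 was the lowest KD library for 7 of the 8 genes, all but *chrng*, and KD replicate 3 the highest for 5. The median log2 ratio over the 8 genes was -1.35 in pair 1, -0.96 in pair 2 and -0.82 in pair 3. Without replicate 2 of both groups, a choice made after the data were seen, 4 of the 8 genes were called (*chrna1*, *chrnd*, *chrng* and *rapsn*).

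The genes were next read against the sarcomere and fibre reads of each library. For every 1000 reads on the sarcomere and fibre list, the 4 receptor subunits (*chrna1*, *chrnd*, *chrng* and *chrne*) together had 6.67, 8.72 and 9.29 reads in KD replicates 1 to 3, against 8.48, 8.30 and 8.83 reads in control replicates 1 to 3. The KD values lay on both sides of the control values. The summed level of these subunits was 105 ± 24.8 CPM in KD libraries against 227 ± 9.15 CPM in control ones, 2.17-fold lower in the KD, and that of the sarcomere and fibre list was 2.10-fold lower. At stage 20 there were 23.6 receptor reads for every 1000 sarcomere and fibre reads. Of these, *chrng* had 11.1, against 0.983 to 1.95 in the control libraries. *chrna1* (5.99) and *chrnd* (6.33) were above their control libraries too, and *chrne* (0.140) was below.

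**Figure D4:**
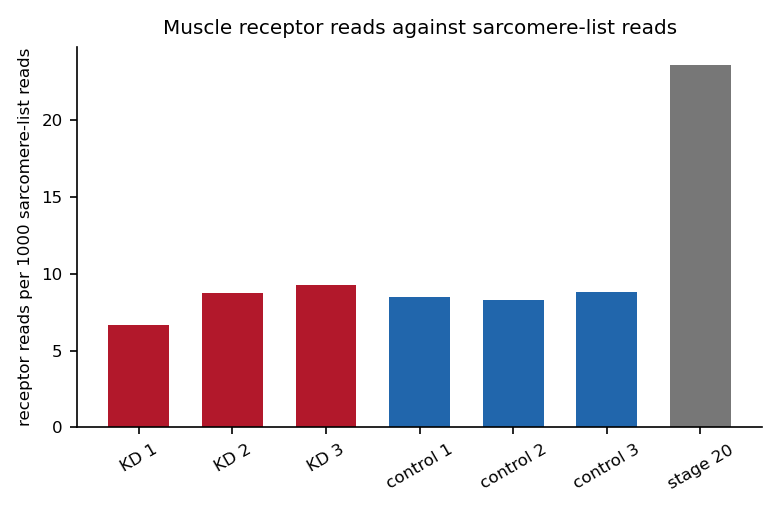
Reads on *chrna1*, *chrnd*, *chrng* and *chrne* together for every 1000 reads on the sarcomere and fibre list (vertical axis, from 0), 1 bar per library. The KD bars (6.67 to 9.29) lie around the control bars (8.30 to 8.83), and stage 20 is at 23.6.

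Relative to the same sarcomere and fibre reads, *rapsn* and *ache* were the members whose KD libraries all lay above the control libraries. *rapsn* had 0.936, 1.07 and 0.869 reads for every 1000 in KD replicates 1 to 3, against 0.805, 0.694 and 0.839 in control replicates 1 to 3, a mean log2 difference of 0.30. *ache* had 1.67, 2.39 and 1.65 in KD replicates 1 to 3 and 1.57, 1.38 and 1.08 in control replicates 1 to 3, a mean log2 difference of 0.50. The other 6 members overlapped on this scale, with mean log2 differences of -0.30 (*chrne*) to 0.15 (*dok7*). These ratios are descriptions without a test, and *actc1* alone made up 4010 of the 12653 CPM of the list in the KD mean and 7264 of the 26563 CPM in the control mean. The list itself was 2.10-fold lower in the KD, so a gene that fell less than the list is higher on this scale. How many of all genes lie wholly above the controls on this scale was not computed. On the CPM scale all KD libraries lay above all control libraries for 15.9% of all genes, which is not a background for these ratios.

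Between stage 20 and stage 32 of development the members did not share a direction. The stage 20 library was above all 3 control libraries for 5 genes, where this held for 39% of all genes, within their range for *musk* (15.2 CPM at stage 20) and below it for *chrne* and *ache*. With scaling by library size only it was above them for 4, as *dok7* then lay within the control range. *chrng* averaged 39.8 ± 12.9 CPM in the stage 32 controls (SD, n = 3 libraries), against 209 CPM at stage 20, 5.24-fold lower at the later stage. *chrne* went the other way, at 11.7 ± 7.02 CPM in the stage 32 controls against 2.64 CPM at stage 20, 4.45-fold higher at the later stage. Of all genes tested, 22.8% were more than 2-fold higher in the stage 32 controls and 12.8% more than 2-fold lower. For *chrna1* (92.2 CPM in the stage 32 controls, 113 CPM at stage 20), *chrnd* (83.2 and 119 CPM), *rapsn* (20.7 and 25.9 CPM), *dok7* (5.29 and 6.97 CPM) and *ache* (35.7 and 28.2 CPM) the stages differed by less than 1.5-fold, and with 1 library at stage 20 none of these differences was tested.

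Set against stage 20, every KD library was lower for 7 of the 8 genes, and this held for 38.6% of all genes. With library size only it was 6, as *ache* then lay within the KD range. The KD mean was 0.0886 times the stage 20 level for *chrng*, 0.343 to 0.471 times for *chrna1*, *chrnd*, *musk*, *rapsn* and *dok7*, and 0.843 times for *ache*. For *chrne* the stage 20 library (2.64 CPM) lay within the KD range of 2.25 to 6.57 CPM. *chrng* was thus lower in the KD than in the control and lower in the control than at stage 20, while *chrne* had a lower mean in the KD than in the control and a higher mean in the control than at stage 20.

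The wider pathway was read next. Of 43 symbols on a list of agrin-MuSK signalling and postsynaptic scaffold genes, 39 were matched, to 40 genes tested. In the KD 7 of these fell and 1 rose at an edgeR FDR below 10%, against 14.4% of all genes called, and 32 did not pass, with a median log2 fold change of -0.09. Without control replicate 3 the count was 4, all lower, without replicate 2 of both groups 5, all lower, and in the blocked fit 12 lower and 3 higher, where that fit called 38.2% of all genes. Of all genes, 868 were called without control replicate 3 and 1396 without replicate 2 of both groups, against 2443 with every library. The ligand and receptor of the agrin signal were among those that did not pass. *agrn*, the nerve and muscle ligand, had 84.4 ± 8.65 CPM in KD libraries against 74.3 ± 10.7 CPM in control ones (log2 fold change 0.20, 95% interval -0.13 to 0.53, edgeR FDR 0.425), and its receptor *lrp4* had 139 ± 32.6 CPM in KD libraries against 138 ± 19.1 CPM in control ones (log2 fold change 0.03, 95% interval -0.39 to 0.45, edgeR FDR 0.943).

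The falls with the smallest p on that list were in laminins of the basal lamina. *lama2*, the laminin α2 chain of muscle, was at 26.5, 36.7 and 35.8 CPM in KD replicates 1 to 3 and at 101, 95.6 and 85.6 CPM in control replicates 1 to 3 (log2 fold change -1.49, standard error 0.16, edgeR FDR 0.00359). *lamb2*, the laminin β2 chain enriched at the synapse in mammals, had 20.1 ± 0.347 CPM in KD libraries against 51.7 ± 8.18 CPM in control ones (log2 fold change -1.35, FDR 0.00360). For both laminin genes the gap between the groups exceeded the spread within them. The kinase gene *abl2* (21.1 ± 0.644 CPM in KD libraries against 34.4 ± 2.20 CPM in control ones, FDR 0.0141) and *utrn*, for the dystrophin relative utrophin (76.0 ± 1.04 CPM in KD libraries against 108 ± 3.36 CPM in control ones, FDR 0.0264), fell less. The gene that rose was *ank3*, for the membrane adaptor ankyrin G (174 ± 2.82 CPM in KD libraries against 140 ± 4.81 CPM in control ones, FDR 0.0841), and this call was lost whichever library was left out (FDR 0.139 to 0.244).

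Genes of the presynaptic side were called in the opposite direction to the members. Of 18 presynaptic cholinergic and motor neuron genes tested, 7 rose in the KD at an edgeR FDR below 10%, where 7.44% of all genes were called higher, and 11 did not pass. None was called lower, also in DESeq2 or at an unadjusted p below 0.05, and the median log2 fold change was 0.35. The neural list given beside *ache* was higher in the same libraries, and its part in these values was not tested. *slc18a3*, the vesicular acetylcholine transporter, was at 27.8, 35.6 and 36.7 CPM in KD replicates 1 to 3 and at 19.6, 20.4 and 17.6 CPM in control replicates 1 to 3 (1.76-fold higher, standard error of the log2 fold change 0.15, edgeR FDR 0.0190). *slc5a7*, the choline transporter, was 1.71-fold higher (7.63 ± 0.876 CPM in KD libraries against 4.50 ± 0.335 CPM in control ones, FDR 0.0362), and *chat*, which makes acetylcholine, was 1.98-fold higher (4.59, 7.58 and 6.06 CPM in KD replicates 1 to 3 against 3.17, 3.76 and 2.30 CPM in control replicates 1 to 3, FDR 0.0647). For these genes of acetylcholine supply every KD library was above every control library. This held for 8 of the 18 genes tested on the list and for 15.9% of all genes. The call of *slc5a7* was lost on leaving out KD replicate 2 (FDR 0.116) or control replicate 3 (FDR 0.136), and that of *chat* on leaving out KD replicate 2 or 3 or control replicate 1 or 3 (FDR 0.137 to 0.192).

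*isl1*, a homeobox gene of motor and sensory neurons, was 1.62-fold higher (38.2 ± 1.83 CPM in KD libraries against 23.9 ± 2.24 CPM in control ones, edgeR FDR 0.0167), and *prph*, for the neuronal filament peripherin, 1.75-fold higher (290 ± 32.5 CPM in KD libraries against 168 ± 34.7 CPM in control ones, FDR 0.0308, and 0.110 without control replicate 3). General genes of synaptic release such as *snap25* (log2 fold change 0.16, FDR 0.652) were among those that did not pass. In the blocked fit *syt1*, *syt2* and *vamp2* passed, all higher (FDR 0.0560, 0.0704 and 0.0632). There *snap25* (FDR 0.239) and the other release genes of the list did not. The count of 7 was 2 without control replicate 3, 3 without KD replicate 2, 4 without KD replicate 3 or control replicate 1, 3 without replicate 2 of both groups, and 11 in the blocked fit. Of the 16944 genes tested, the blocked fit called 3255 higher. The number of all genes called higher also dropped, from 1261 to 433 without control replicate 3 and to 614 without KD replicate 2. It was 704 without KD replicate 3, 665 without control replicate 1 and 661 without replicate 2 of both groups.

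The neuronal nicotinic subunits, relatives of the muscle subunits, were not called in either direction. Of 12 symbols 9 were matched and tested, with 3 lower, 6 higher, a median log2 fold change of 0.19 and none at an edgeR FDR below 10%, whereas 1 had an unadjusted p below 0.05 and 1 was called by DESeq2, both higher. The nearest to the threshold was *chrnb4*, with 3.52 ± 0.639 CPM in KD libraries against 2.17 ± 0.308 CPM in control ones (log2 fold change 0.72, edgeR FDR 0.103). Every KD library was above every control library for this gene, 1 of the 9, and for 15.9% of all genes. In the blocked fit 3 of the 9 were called, all higher (*chrnb4*, *chrna7* and *chrna2*, FDR 0.0349, 0.0300 and 0.0162). That fit called 38.2% of all genes, and 3255 of the 16944 genes tested higher. The 4 matched glycosylation genes in which human mutations cause congenital myasthenia were also not called by edgeR or DESeq2, none had an unadjusted p below 0.05, and the median log2 fold change was -0.31. In the blocked fit 3 of these were called lower, where that fit called 19% of all genes lower.

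**Figure D5:**
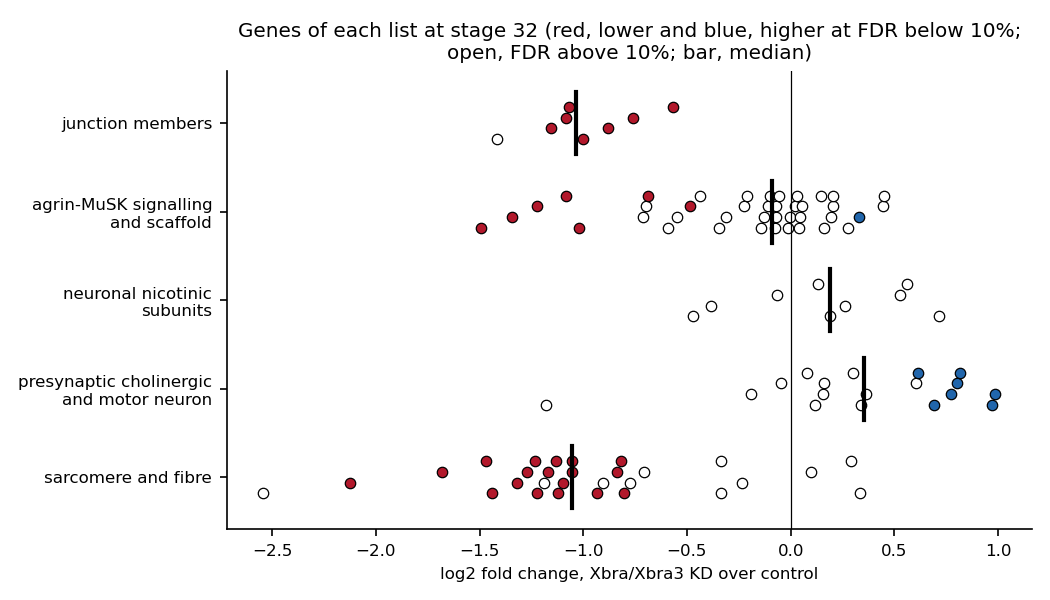
Log2 fold change of Xbra/Xbra3 KD over control (horizontal axis) for every gene tested on 5 lists; filled points had an FDR below 10% and bars mark medians. The medians are -1.04 for the junction members, -0.09 for agrin-MuSK signalling and scaffold, 0.19 for neuronal nicotinic subunits, 0.35 for presynaptic and motor neuron genes and -1.06 for sarcomere and fibre genes.

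The myogenic transcription factors, which bind the promoters of muscle receptor genes in other vertebrates, were lower too. All 5 on the list, among them *myf5* and *mef2c*, fell at an edgeR FDR below 10%, where 6.98% of all genes were called lower. The count of 5 dropped to 1 when KD replicate 2 or control replicate 3 was left out and to 2 when KD replicate 3 was. It dropped to 3 when control replicate 1 or replicate 2 of both groups was left out. The number of all genes called lower dropped as well, from 1182 to 663 without KD replicate 2 and to 435 without control replicate 3. *myod1* was at 3.49, 4.28 and 5.93 CPM in KD replicates 1 to 3 and at 19.4, 13.5 and 17.0 CPM in control replicates 1 to 3 (3.58-fold lower, edgeR FDR 0.00647). *myog* had 1.91, 5.97 and 5.39 CPM in KD replicates 1 to 3 and 8.39, 24.0 and 12.8 CPM in control replicates 1 to 3 (FDR 0.0746), with replicate 2 the highest of both groups, as for *chrne*. Its call held only without control replicate 1 among the fits leaving out a library (FDR up to 0.160).

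Finally, the genes whose profile over the 7 libraries was most like the mean of the 8 members were looked up among 15135 genes with a symbol. Likeness was the root mean square difference of log2 CPM centred on each gene's mean. The nearest were *neb* (0.06), which encodes the giant thin filament protein nebulin, *insig2* (0.12), *tmem183a* (0.12), *apobec2* (0.12) and *best3* (0.12). Their log2 fold changes in the KD ran from -1.13 (*apobec2*) to -0.94 (*neb*), and their stage 20 levels from 1.06 (*insig2*) to 1.28 times (*best3*) the control mean. The genes were picked by likeness over these same libraries, so values near those of the members follow from the choice. Among the members themselves *chrnd* (0.13), *dok7* (0.15), *chrna1* (0.19), *musk* (0.19) and *rapsn* (0.21) were near the mean, *ache* (0.39) farther, and *chrng* (0.86) and *chrne* (0.87) lay far from it, in opposite directions at stage 20. Each member is itself part of this mean, unlike the genes above, so the values of members and of other genes are not directly comparable.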

How the data were processed

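Per the paper's methods and the labels, the authors sequenced poly(A) RNA as pairs of 55 bases and mapped them with Bowtie 0.12.7 onto JGI4.1 transcripts from Ensembl. Pairs matching more than 1 gene were dropped, and a pair matching several isoforms was counted a single time. The deposited values are read counts per transcript (24160), without normalization. The Ensembl release is not given in the sources used here. The header names were assigned in their order to the 7 columns of values, since 6 empty fields precede them, and *t2* was lower in each of the 3 columns so labelled KD than in the controls. Transcripts were summed per gene (each member has 1), and symbols were taken from the table or, for 711 of the 766 genes listed under a RefSeq protein identifier, from a RefSeq table of assembly UCB_Xtro_10.0. Coordinates and sequences were not used here.

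Genes with 10 or more reads in total at stage 32 (6 libraries) entered edgeR 4.0.16 (R 4.3.3): TMM scaling, quasi-likelihood test, Benjamini-Hochberg adjustment, FDR 10%. The standard error is the log2 fold change divided by the root of the F statistic. CPM values used TMM over the 7 libraries. Likeness used log2(CPM + 0.1). The paper states no term for the replicate number. The labels call the libraries biological replicates but do not say what a number shares. The paper reports that replicates 1 and 3 clustered apart from replicate 2 whether or not the embryos were KD. Same-numbered KD and control libraries deviated together from their group means (r = 0.573, 0.587 and 0.316 across genes), least for number 3. For libraries of differing number r was -0.510 to 0.0096. Deviations from a group mean cancel within the group for each gene, so positive values for same numbers force negative ones elsewhere. The r of differing numbers is thus not an independent background. A block for the number was run as an alternative, while the main test was unpaired. Further alternatives were scaling by DESeq2's size factors or by library size only, no filter, filterByExpr, DESeq2 1.42.0, an FDR of 5%, a prior count of 2, the transcript with the most reads and leaving out each library. Leaving out replicate 2 of both groups and edgeR's legacy method, and the alternatives for genes and lists outside the members, were added after the data were seen. Methods were tested on simulated counts that held no effect of the replicate number, so this did not test the block on paired libraries.

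The members and lists were chosen with earlier results of these data known, so no list was tested as a set. Of each list at most 4 genes with an FDR below 10% and the smallest p in each direction are named. *chat*, *agrn*, *lrp4*, *snap25*, *syt1*, *syt2*, *vamp2*, *chrnb4*, *chrna7*, *chrna2*, *actc1* and *myog* (for its replicates) were singled out after their values were seen.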

Additional observations from a re-analysis of the deposited data

How the results depend on the processing

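The 8 members and *chrna1.2* kept their direction under all alternatives run. Of 16 other named genes for which they were run, *lrp4* (-0.18 without KD replicate 1, -0.08 without control replicate 2) and *snap25* (-0.01 without KD replicate 2) changed sign, and neither passed the threshold under any setting. The shares and ratios within libraries were given under 1 setting. The count of called members (7) was 8 with DESeq2 and 8 with the replicate block, 5 with library size only (where *ache*, FDR 0.162, and *dok7*, FDR 0.123, missed the threshold) and 4 at an FDR of 5% (*chrna1*, *chrnd*, *chrng* and *rapsn*). Leaving out 1 library gave 3 to 6: 4 without KD replicate 1, KD replicate 2 or control replicate 2 and 3 without control replicate 3. Without replicate 2 of both groups it was 4. The median log2 fold change of the members stayed between -1.20 and -0.80 over all of these. Of all genes tested, 2443 were called, 1269 at an FDR of 5%, 868 to 1961 without 1 library (868 without control replicate 3), 1396 without replicate 2 of both groups and 6468 with the replicate block, while DESeq2 called 3389. Of the calls, 48.4% were lower in the KD with TMM, 50.9% with DESeq2's size factors and 34.5% with library size only. With library size only the stage 20 level over the control mean was 1.13 for *chrna1*, against 1.22 with TMM, and 0.918 for *musk*, against 0.998. The replicate block changed the call of no member but *chrne*. Every member had at least 218 reads in every library.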
